A study of Mus musculus with 48 samples.

Results

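GABA-CB1-KO mice, which lack the cannabinoid type-1 receptor CB1 in forebrain GABAergic neurons, were compared with CB1-WT mice of the same line after exposure to an open field (OF). All libraries whose labels give this line and this state were taken, which are 5 GABA-CB1-KO and 7 GABA-CB1-WT libraries, 12 of the 48 in the series. The study's results section gives the sizes of these groups the other way round. The labels were followed here. Each library was made from the hippocampal Cornu Ammonis (CA) of 1 male mouse, labelled as 8 weeks old, after removal of the dentate gyrus. The KO mice carried floxed CB1 alleles and Cre recombinase under regulatory elements of *Dlx5/6*, and their CB1-WT littermates kept functional receptor. All 12 mice explored a new arena for 5 min, and by the study's account the tissue was isolated an hour later, so the stimulus was shared by both genotypes. The comparison shows how the tissue differs with genotype once it has been stimulated, over 15097 expressed genes. It was set beside the home cage (basal) libraries of the same line (6 KO, 6 WT) and beside the OF libraries of the Glu-CB1 line (7 KO, 5 WT), in which *Nex*-driven Cre removes CB1 from glutamatergic neurons.

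CB1 is a G protein-coupled receptor on axon terminals. Endocannabinoids made by an active postsynaptic cell travel back to it and lower the release of transmitter. In the hippocampus the receptor is densest on terminals of a class of GABAergic interneurons that also contain cholecystokinin, and it is present at lower density on glutamatergic terminals. Its loss from GABAergic cells takes away this brake on inhibition. The whole tissue was sequenced, so the transcripts of pyramidal cells, glia and interneurons are mixed, and fewer cells of a type cannot be told apart from less RNA per cell.

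Gene counts summed to between 27738566 and 32899608 per library (median 30257708), and between 17635 and 17901 genes had a count. The labelled tissue had the markers of its principal cells, whose summed level in CPM (counts scaled to library size and normalised by TMM) was 970 to 1170 for 11 CA1 genes and 1962 to 2598 for 17 CA3 and CA2 genes. The 13 markers of dentate granule cells were also detected, at 459 to 673 CPM. GABA-CB1-KO replicate 4 stood apart. Its 15 choroid plexus and ependyma markers summed to 5472 CPM, against 261 to 328 CPM in the other 11 libraries, and *Ttr*, a transthyretin gene that choroid plexus transcribes strongly, was at 3855 CPM in it and at 15.7 to 51.9 CPM elsewhere. Values without this library are given beside several results.

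*Cnr1* (mm10, chromosome 4, 33924632–33948831, plus strand), the gene of CB1, was measured at 156, 130, 144, 101 and 147 CPM in the 5 KO libraries. In the 7 WT libraries it ran from 337 to 395 CPM with a median of 368. The groups were far apart, and the gene separated the libraries as their labels do. The mean was 135 ± 21.6 CPM (SD, n = 5) in KO mice and 370 ± 19.5 CPM (n = 7) in WT mice, a log2 fold change of −1.45 (SE 0.09, adjusted p = 6.84e-07, from edgeR's quasi-likelihood fit, adjusted over all genes by Benjamini-Hochberg). The mean fell by 63.4%. Neurons of the tissue that are not GABAergic kept their functional alleles, and which cells the remaining reads came from was not measured.

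*Pdlim1* and *Ttc39b* were the other genes past the adjusted threshold, and both fell. With *Cnr1* they make 3 genes called of 15097 (0.0199%), none of them higher in KO mice. *Pdlim1* (chromosome 19, 40222239–40271616, minus strand) encodes a PDZ and LIM domain protein that binds actin-associated α-actinin. It had 1.27, 1.20, 1.44, 1.47 and 1.17 CPM in KO libraries and 2.35 to 2.95 CPM (median 2.86) in WT libraries. All KO libraries were below all WT libraries, at a low level in both. The fall from 2.76 ± 0.22 to 1.31 ± 0.139 CPM gave a log2 fold change of −1.07 (SE 0.11, adjusted p = 3.66e-04). Of 34 other tested genes that start within 2000000 bp of *Pdlim1*, 6 had an unadjusted p under 0.05 (17.6%, against 13.2% of all genes) and 0 were called by edgeR. The smallest p of the 6 was that of *Blnk*, whose start lies 706688 bp away (log2 −0.47, unadjusted p = 0.00107, edgeR). *Pdlim1* and *Blnk* were also both lower in the home cage. In Glu-CB1-KO mice after the open field both were higher (log2 0.62 and 0.29, adjusted p = 0.0544 and 0.311, edgeR). Why these neighbours moved together was not tested.

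*Ttc39b* (chromosome 4, 83220301–83324189, minus strand) encodes a tetratricopeptide repeat protein known from lipid metabolism. It was at 73.0, 70.7, 63.1, 68.6 and 73.6 CPM in KO libraries and at 78.6 to 89.8 CPM (median 87.3) in WT libraries, again with no overlap. The means of 69.8 ± 4.21 and 86.6 ± 3.88 CPM differed by −0.31 on the log2 scale (SE 0.04, adjusted p = 0.0222). This call was lost when any 1 of 9 libraries was left out (WT replicates 2 to 7 and KO replicates 2, 3 and 4), with adjusted p-values up to 0.0903. *Cnr1* and *Pdlim1* stayed past the threshold with each of the 12 libraries left out in turn.

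**Figure D1:**
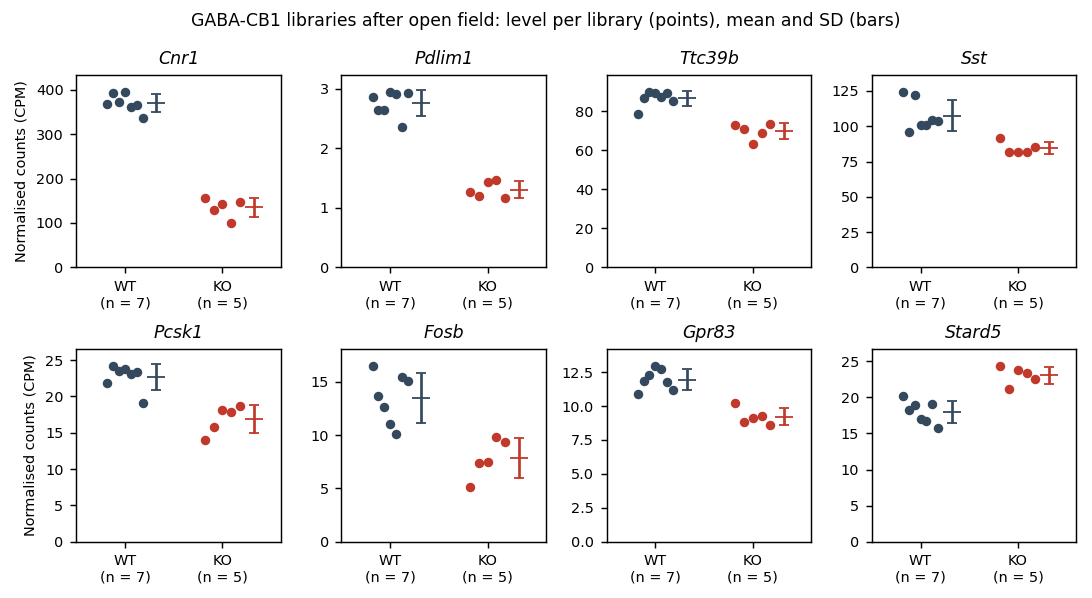
Levels of *Cnr1*, *Pdlim1*, *Ttc39b*, *Sst*, *Pcsk1*, *Fosb*, *Gpr83* and *Stard5* in CPM (vertical axes, starting at 0) in each of the 5 GABA-CB1-KO and 7 GABA-CB1-WT open field libraries, with bars for mean and SD. In all 8 panels the KO points do not overlap the WT points, and *Stard5* is the gene that is higher in KO libraries.

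Beyond these genes the differences were small and their number depended on the test. An unadjusted p under 0.05 was found for 2000 genes (13.2%), 1070 of them higher in KO mice (7.09%) and 930 lower (6.16%), and the median log2 fold change over all genes was 0.00. The groups did not overlap for 146 genes (0.967%), of which 83 were higher and 63 lower. DESeq2, the tool of the study, called 143 of the 9579 genes to which it gave an adjusted p (1.49%), 70 higher and 73 lower. The median change of these genes was 0.18 on the log2 scale among the higher and −0.22 among the lower, and 2 of the 143 changed by more than 0.5.

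Fold changes followed the base composition of the transcripts. Over 12337 genes, Spearman's rho between the log2 fold change and GC content was 0.588. Genes share libraries, so this is a description without a test. With the genes divided into 5 groups of like size by GC content, the median log2 fold change went from −0.08 in the AT-richest group to 0.08 in the GC-richest. Genes called lower by DESeq2 had a median GC content of 45.03% and those called higher 56.6%, against 49.7% for all genes. The trend was already present in single libraries: rho of a library's deviation with GC content ran from −0.27 to 0.48 in KO libraries (median 0.33) and from −0.57 to 0.44 in WT libraries (median −0.20). The means of the groups differed by 0.42, with p = 0.0593 (exact permutation test, two-sided, 792 splits).

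A smooth trend of each library with GC content was therefore entered as an offset, an alternative chosen after the data were seen. With it, rho fell to 0.02 and edgeR called 5 genes (0.0331%), all lower: *Cnr1*, *Pdlim1* and *Ttc39b* as before, and *Sst* and *Fxyd7*. DESeq2 with the same offset called 57 of 14109 genes (0.404%), 19 higher and 38 lower. The 42 genes called both with and without the offset are 29.4% of the 143 and 73.7% of the 57. An unadjusted p under 0.05 was found for 1313 genes (8.7%), 695 higher (4.6%) and 618 lower (4.09%). Without KO replicate 4, and with no offset, such a p was found for 5.43% of 15163 genes as higher and for 4.35% as lower in KO mice. Values with the offset are given beside many of the genes and lists that follow. The lists were chosen with earlier results of these data known, so their counts and the tests of their sums are descriptions and no independent evidence.

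**Figure D2:**
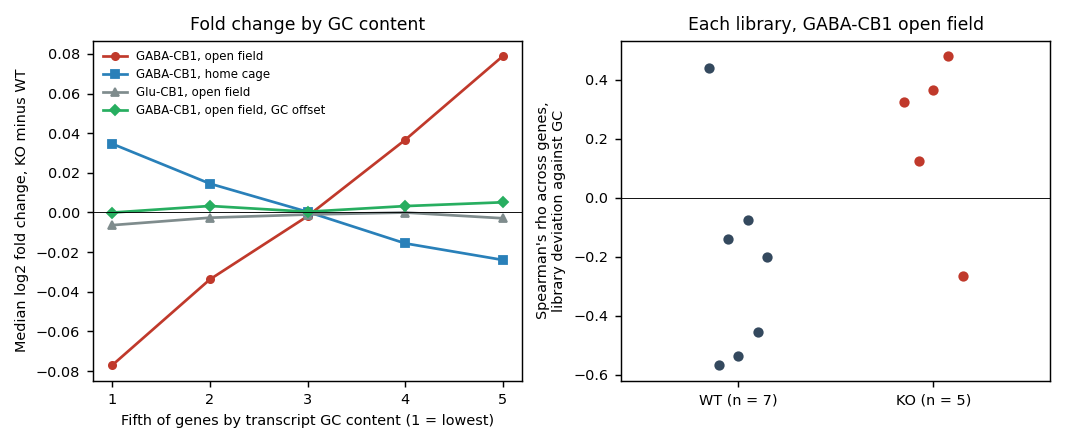
Left, median log2 fold change (KO minus WT, vertical axis) of genes in 5 equal groups by GC content, for GABA-CB1 in the open field, GABA-CB1 in the home cage, Glu-CB1 in the open field, and GABA-CB1 in the open field with the GC offset. Right, Spearman's rho of each library's deviation with GC content for the 5 KO and 7 WT libraries: the open field line climbs from −0.08 to 0.08 and is flat with the offset, and the KO and WT points overlap.

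*Sst*, *Pcsk1* and *Pam*, genes of peptide secretion, were among the 15 genes with the smallest p-values. Somatostatin (*Sst*) is the peptide of an interneuron class that targets pyramidal cell dendrites. Prohormone convertase 1 (*Pcsk1*) cuts precursors into peptides, and secretogranin II (*Scg2*) is a granin stored in the same dense-core vesicles. The 3 promoters below are shown because each holds the cAMP response element TGACGTCA, the palindrome bound by the activity-dependent factor CREB, and because the 3 genes were lower in KO mice. *Scg2* was chosen for this after its values were seen. They are the 250 bases before the RefSeq start on GRCm38.p6, 5′ to 3′ on the gene's strand, with the element in capitals. They lie at chr16:23890845-23891094 (minus, *Sst*), chr13:75089607-75089856 (plus, *Pcsk1*) and chr1:79440027-79440276 (minus, *Scg2*).
Sst: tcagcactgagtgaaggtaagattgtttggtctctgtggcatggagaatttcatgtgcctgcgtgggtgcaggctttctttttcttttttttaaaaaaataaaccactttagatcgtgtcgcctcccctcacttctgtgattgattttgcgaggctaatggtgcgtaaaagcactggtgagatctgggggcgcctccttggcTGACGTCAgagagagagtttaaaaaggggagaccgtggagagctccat
Pcsk1: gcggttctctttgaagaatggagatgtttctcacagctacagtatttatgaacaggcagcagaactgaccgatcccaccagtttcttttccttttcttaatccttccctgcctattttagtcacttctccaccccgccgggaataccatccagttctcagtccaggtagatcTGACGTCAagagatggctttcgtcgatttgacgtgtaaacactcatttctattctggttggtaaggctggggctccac
Scg2: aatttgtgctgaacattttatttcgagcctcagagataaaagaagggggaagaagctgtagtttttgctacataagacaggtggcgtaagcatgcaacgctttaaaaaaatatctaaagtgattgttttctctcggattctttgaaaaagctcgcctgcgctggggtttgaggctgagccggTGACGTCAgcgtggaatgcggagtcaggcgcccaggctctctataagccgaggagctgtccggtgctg
The element stands 48 to 41 bases before the RefSeq start in *Sst*, 78 to 71 in *Pcsk1* and 68 to 61 in *Scg2*. The gene models used for counting begin elsewhere for *Pcsk1* (75089987) and *Scg2* (79440090), so the distances hold for the RefSeq start alone. Searched by its exact letters, which read the same on both strands, it was found in 508 of 32851 RefSeq promoters of this length (1.55%) and in 309 of 11387 that could be matched to a tested gene (2.71%). It was found in 2 of the 27 named genes that could be matched (*Sst* and *Pcsk1*), in 4 of 23 peptide and granin precursors (*Scg2*, *Chgb*, *Cartpt* and *Sst*), in 2 of 27 immediate early genes and in 2 of 23 delayed activity-regulated effectors. Genes with the element did not all lie on one side, since *Cartpt*, the precursor of the CART peptides, was at a log2 fold change of 0.35 (adjusted p = 0.420, edgeR), above 0. A match is a description of the sequence and not a measured binding site.

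*Sst* (chromosome 16, 23889581–23890844) was at 91.4, 81.9, 81.8, 82.0 and 85.4 CPM in KO libraries and at 96.2 to 124 CPM (median 104) in WT libraries, without overlap. Its log2 fold change was −0.35 (SE 0.06, adjusted p = 0.107), not past the threshold as fitted. With the GC offset it was −0.40 (adjusted p = 0.00947), and it then stayed past the threshold with each of the 12 libraries left out. Without the offset it was called in 0 of the 12 fits that leave out a library. DESeq2 called *Sst* without the offset (adjusted p = 2.20e-04) and with it (6.05e-09).

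*Pcsk1* (chromosome 13, 75089987–75132498) was at 13.97, 15.8, 18.2, 17.9 and 18.7 CPM in KO libraries and at 19.1 to 24.1 CPM (median 23.3) in WT libraries, also without overlap (log2 −0.43, SE 0.08, adjusted p = 0.107, and 2.17e-04 by DESeq2). *Pam*, the enzyme that amidates peptide ends, was at 195, 212, 195, 187 and 198 CPM against 214 to 231 CPM (median 225). All KO libraries were again lower (log2 −0.18, SE 0.04, adjusted p = 0.126, and 4.34e-04 by DESeq2). Of the 6 processing enzymes tested, 5 were lower and 1 higher, and *Pcsk1* and *Pam* were the 2 with an unadjusted p under 0.05 (33.3%, against 13.2% of all genes). *Scg2* had 190 to 217 CPM in KO libraries and 219 to 264 CPM in WT libraries (log2 −0.20, SE 0.05, adjusted p = 0.177, and 0.0196 by DESeq2). DESeq2 no longer called it with the GC offset (adjusted p = 0.0635).

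Of 28 peptide and granin precursors, 15 were lower and 13 higher in KO mice, with a median log2 fold change of −0.04. An unadjusted p under 0.05 was found for 32.1% of the list, against 13.2% of all genes, which were the lower *Sst*, *Npy*, *Crh*, *Tac1*, *Adcyap1*, *Scg2* and *Scg3* (7 genes) and the higher *Penk* and *Nmb* (2 genes). There were 17 lower and 11 higher with the GC offset. Of these, 6 lower ones (21.4% of the list, against 4.09% of all genes) and 2 higher ones had such a p. Without KO replicate 4 there were 14 on each side. *Tac1*, the substance P precursor, was at 4.77 ± 0.436 CPM in KO and 6.31 ± 0.745 CPM in WT mice, and *Npy* at 25.7 ± 3.23 and 29.7 ± 2.94 CPM. *Crhbp*, whose product binds corticotropin-releasing hormone, was at 24.1, 16.8, 16.3, 15.02 and 18.5 CPM in KO libraries and at 22.003 to 27.1 CPM in WT libraries, where 1 KO library lay within the WT range (log2 −0.40, SE 0.10, adjusted p = 0.177, and 0.0154 by DESeq2). In its list of 6 genes of the CRH system and corticosteroid receptors, 4 were lower. An unadjusted p under 0.05 was found for 2 of them, *Crhbp* and *Crh* (33.3% of the list, against 6.16% of all genes). *Npbwr1*, a receptor for neuropeptides B and W, was at 1.82, 1.70, 1.12, 1.08 and 1.84 CPM against 2.29 to 3.68 CPM in WT libraries (log2 −0.87, SE 0.17, adjusted p = 0.118). Its groups did not overlap at this low level.

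Activity-regulated genes leaned lower in KO mice. Of 34 immediate early genes, which neurons transcribe within minutes of firing, 25 were lower and 9 higher, with a median log2 fold change of −0.13, while 49.3% of all genes were lower. None was called by edgeR and 2 by DESeq2 (*Fosb* and *Ier5*, and 3 with the GC offset), and 7 lower ones (20.6% of the list, against 6.16% of all genes) and 0 higher ones had an unadjusted p under 0.05. With the GC offset 29 were lower, against 47.8% of all genes, and 7 of them had such a p (20.6%, against 4.09%). Without KO replicate 4 these numbers were 28 and 11, where 4.35% of all genes were lower with such a p. As fitted, with no offset and all libraries, the 7 genes were *Fosb*, *Fosl2*, *Egr3*, *Nr4a2*, *Ier5*, *Gadd45g* and *Fbxo33*. With the offset *Egr4* had such a p in place of *Nr4a2*.

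*Fosb*, a subunit of the AP-1 transcription factor, was at 5.11, 7.43, 7.52, 9.83 and 9.39 CPM in KO libraries and at 10.1 to 16.5 CPM (median 13.7) in WT libraries. All KO libraries were below all WT libraries (log2 −0.78, SE 0.15, adjusted p = 0.132, and 3.91e-04 by DESeq2). *Gadd45g*, a growth arrest and DNA damage gene, had 4.12 ± 0.709 and 5.76 ± 0.652 CPM, without overlap (adjusted p = 0.177). The genes most often used as activity markers overlapped between the genotypes. *Fos* ran from 6.43 to 14.6 CPM in KO and from 8.44 to 23.5 CPM in WT libraries, and *Arc* from 99.7 to 227 and from 86.7 to 216 CPM. *Nr4a2* was at 51.1 ± 10.2 and 61.7 ± 8.53 CPM with overlap (adjusted p = 0.358).

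Of 33 delayed effectors, which follow the first wave, 26 were lower (78.8%, against 49.3% of all genes) and 7 higher, with a median of −0.10. An unadjusted p under 0.05 was found for 10 lower ones (30.3%, against 6.16% of all genes) and for *Acan*, the core of perineuronal nets, which was higher. *Bdnf*, a secreted neurotrophin, was at 49.1, 36.5, 39.7, 39.4 and 46.1 CPM in KO libraries and at 46.5 to 61.8 CPM (median 55.6) in WT libraries, so 1 KO library reached into the WT range (log2 −0.37, SE 0.08, adjusted p = 0.168, and 0.00524 by DESeq2). *Sorcs3*, a sorting receptor for neurotrophin signalling, was at 54.2 ± 4.77 and 65.6 ± 4.09 CPM (adjusted p = 0.134, and 0.00380 by DESeq2). Under the GC offset 7 of the 33 were lower with an unadjusted p under 0.05 (21.2%, against 4.09% of all genes) and 1 higher.

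The other genes at the head of the lower list were *Gpr83*, *Myadm*, *Rab3b* and *Cntnap4*, each without overlap between the groups. *Gpr83*, a G protein-coupled receptor, was at 10.2, 8.84, 9.10, 9.24 and 8.62 CPM in KO libraries and at 10.9 to 12.9 CPM (median 11.8) in WT libraries (log2 −0.37, SE 0.06, adjusted p = 0.0847). *Myadm*, a membrane raft protein, was at 80.6, 83.3, 87.3, 83.3 and 85.2 CPM against 90.3 to 99.9 CPM (log2 −0.20, SE 0.04, adjusted p = 0.107). *Rab3b*, a small GTPase of synaptic vesicles, was at 34.9 ± 1.58 and 42.1 ± 3.20 CPM (log2 −0.27, adjusted p = 0.134). *Cntnap4*, a neurexin-like protein of interneuron terminals, was at 26.1 ± 1.48 and 30.999 ± 1.75 CPM (log2 −0.25, adjusted p = 0.134). *Fxyd7*, a regulator of the sodium pump that was singled out after its values were seen, was at 24.5 ± 0.992 CPM in KO and 28.3 ± 1.46 CPM in WT mice, without overlap (log2 −0.21, adjusted p = 0.154, and −0.29 with adjusted p = 0.0240 under the GC offset).

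The 12 genes with the smallest p among those higher in KO mice had log2 fold changes of 0.14 to 0.46 and adjusted p-values of 0.107 to 0.147, so 0 were called by edgeR. DESeq2 called 11 of the 11 to which it gave an adjusted p, where 0.731% of all such genes were called higher. With the GC offset it called 8 of 12, where 0.135% were called higher. The groups did not overlap for 11 of the 12, as for 0.55% of all genes in this direction. The 12 were picked for a small p in these same libraries, so these counts are no independent evidence. *Stard5*, a lipid transfer protein for sterols and bile acids, led them with 24.3, 21.2, 23.9, 23.3 and 22.6 CPM in KO libraries and 15.7 to 20.1 CPM (median 18.3) in WT libraries (log2 0.36, SE 0.06, adjusted p = 0.107, and 1.43e-04 by DESeq2). *Mdga1*, which binds neuroligin-2 at inhibitory synapses, was at 128, 132, 152, 148 and 137 CPM against 99.8 to 125 CPM (log2 0.31, SE 0.06, adjusted p = 0.107). *Lrrtm1*, a postsynaptic partner of neurexins, was at 109, 104, 112, 108 and 107 CPM against 92.4 to 100.3 CPM (log2 0.17, SE 0.03, adjusted p = 0.107). *Ehd1*, an endosome recycling ATPase, was at 74.9, 68.4, 71.8, 69.6 and 73.8 CPM against 60.6 to 66.6 CPM (log2 0.18, SE 0.03, adjusted p = 0.107).

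*Pwwp2b*, a chromatin protein with a PWWP domain, was at 40.1, 39.8, 37.99, 36.1 and 40.6 CPM against 32.2 to 36.3 CPM, and was the 1 gene of the 12 with overlap (adjusted p = 0.118). The others were *Lrrn2* and *Brinp2*, neuronal membrane and secreted proteins, *Camk2b*, the β subunit of the calcium-calmodulin kinase, *Igdcc3*, *Mycl*, *Pcp4*, a calmodulin-binding peptide enriched in CA2, and *Psmb3*, a proteasome subunit. These genes were GC-rich as a group, with a median GC content of 54.3% against 48.2% for the 12 lower ones. With the GC offset 12 of 12 stayed higher and 10 of 12 moved toward 0. *Ehd1* went from 0.18 to 0.11 and *Lrrn2* from 0.22 to 0.13, while *Pcp4* went from 0.19 to 0.21 (adjusted p = 0.0664).

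Markers of GABAergic cells, the cells that lost CB1, were slightly lower. Of 19 genes of GABAergic identity, 16 were lower (84.2%, against 49.3% of all genes) and 3 higher, with a median of −0.10, and 4 lower ones (21.1%, against 6.16%), among them *Satb1*, *Gad1* and *Gad2*, had an unadjusted p under 0.05. Their summed level was 892 ± 27.9 CPM in KO and 961 ± 17.9 CPM in WT mice, a difference of −69.2 CPM (p = 0.00253, exact permutation test, two-sided, 0.0379 after adjustment over 15 marker lists). As the list was chosen with earlier results of these data known, this p is no independent evidence. *Gad1*, which makes GABA, gave 40.2% of this sum and was at 358 ± 9.20 and 387 ± 11.5 CPM (log2 −0.11, adjusted p = 0.234). Weighting the genes equally by their mean log2 CPM gave a difference of −0.10 with an adjusted p of 0.121 in the same exact test.

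Of 22 markers of interneuron subtypes, 14 were lower and 8 higher. An unadjusted p under 0.05 was found for the lower *Pvalb*, *Sst*, *Npy*, *Tac1*, *Crh*, *Cntnap4*, *Cox6a2* and *Tnfaip8l3* and for the higher *Sncg*. The lower ones with such a p were 36.4% of the list, against 6.16% of all genes. *Sst*, *Npy*, *Tac1* and *Crh* also belong to the list of peptide precursors. *Pvalb*, the calcium buffer of fast-spiking basket cells, was at 25.9 ± 0.964 and 28.98 ± 2.21 CPM (adjusted p = 0.267). The summed level of the list was 1021 ± 34.4 CPM in KO and 1041 ± 41.1 CPM in WT mice (adjusted p = 0.661, exact permutation test). The lower GABAergic identity sum stands beside the lower peptide and interneuron genes, and its part in them was not tested.

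Inhibitory synapse genes also leaned lower. Of 14 GABA receptor subunits, 12 were lower (85.7%, against 49.3% of all genes), and the median was −0.15. An unadjusted p under 0.05 was found for 5 lower ones (35.7%, against 6.16%), among them *Gabra3*, *Gabra4* and *Gabrb2*. These genes are AT-rich, with a median GC content of 42.6%, and with the GC offset the median was −0.06 and 3 lower ones had such a p (21.4%, against 4.09%). In the list of GABA synthesis, transport and scaffold genes, 8 of 12 were lower. An unadjusted p under 0.05 was found for 2 of them, *Gad1* and *Gad2* (16.7%, against 6.16% of all genes).

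Of 41 genes of the vesicle release machinery, 26 were lower (63.4%, against 49.3% of all genes) and 15 higher. Of the lower ones, 9 had an unadjusted p under 0.05 (21.95% of the list, against 6.16% of all genes), and 1 higher one did. With the GC offset 32 were lower (78.05%, against 47.8% of all genes). Of these, 9 had such a p (21.95% of the list, against 4.09% of all genes). *Vamp1*, a vesicle fusion protein, was at 145 ± 8.11 and 160 ± 5.15 CPM (adjusted p = 0.219, and 0.0249 by DESeq2), and DESeq2 did not call it with the offset (adjusted p = 0.238). Of 29 glutamate receptor genes 20 were lower, 5 of them with an unadjusted p under 0.05 (17.2%, against 6.16% of all genes), and 1 higher gene had such a p. *Grin2b* varied widely, from 42.4 to 137 CPM in KO and from 42.4 to 143 CPM in WT libraries.

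Of 50 potassium channel subunits 30 were lower, and 6 lower and 2 higher ones had an unadjusted p under 0.05 (8 of 50, where 13.2% of all genes had one). Without KO replicate 4 the majority turned, with 24 lower and 26 higher, and 4 and 1 had such a p. The lower ones were led by *Kcnn2*, the SK2 channel of the afterhyperpolarization, at 60.01 to 65.2 CPM in KO and 66.3 to 75.6 CPM in WT libraries (log2 −0.17, SE 0.04, adjusted p = 0.145, and −0.22 with the offset). Of 27 calcium, sodium and HCN channel genes 12 were lower, with 3 such genes in each direction. Of 28 monoamine and muscarinic receptors 18 were lower, also with 3 in each direction. The mitochondrial respiratory chain had 23 genes on each side, with 3 higher and 0 lower at an unadjusted p under 0.05, and 27 higher and 19 lower without KO replicate 4. Clock genes had 8 of 17 lower with 1 such gene, 11 of 17 with the GC offset and 9 of 17 without KO replicate 4. Glucocorticoid-induced genes had 13 of 16 higher with 1 such gene, 10 of 16 with the offset, and 8 of 16 with 0 such genes without KO replicate 4.

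Within the endocannabinoid system, *Cnr1* was the only called gene of 14 tested. *Dagla*, which makes the endocannabinoid 2-AG, was at 232 ± 13.997 CPM in KO and 207 ± 15.9 CPM in WT mice (log2 0.16, adjusted p = 0.267), and *Faah*, which breaks down anandamide, at 194 ± 6.24 and 182 ± 5.61 CPM (log2 0.09, adjusted p = 0.278). Both had an unadjusted p under 0.05. The median of the list was 0.01, with 9 genes higher and 5 lower.

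Markers of other regions and cell types were counted to show what else moved with genotype. Of 17 markers of CA3 and CA2 pyramidal cells 13 were higher, 6 of them with an unadjusted p under 0.05 (35.3%, against 7.09% of all genes). These 6 were *Pcp4*, *Necab2*, *Cdh24*, *Map3k15*, *Rgs14* and *Amigo2*, and both counts were the same with the GC offset. *Pcp4* ran from 52.5 to 57.6 CPM in KO and from 46.6 to 51.9 CPM in WT libraries. The summed level of the 17 markers was 2176 ± 252 and 2183 ± 59.4 CPM in KO and WT mice (adjusted p = 0.965, exact permutation test). *Chgb*, at 37.3% of the sum, was lower in KO mice (762 ± 174 and 849 ± 31.03 CPM). Of 19 subiculum and cortex markers 15 were lower, 5 with an unadjusted p under 0.05 as fitted (26.3%, against 6.16% of all genes). With the GC offset 2 were lower with such a p (10.5%, against 4.09%). Without KO replicate 4 there were 7, where 4.35% of all genes were lower with such a p. The other region lists, CA1 (6 of 11 higher), dentate gyrus (8 of 13), thalamus (8 of 13) and striatum and amygdala (6 of 13), had adjusted p-values of 0.661 to 0.965 for their sums in the same exact test. An unadjusted p under 0.05 in either direction was found for 5 thalamus markers as fitted and for 0 with the GC offset. Without KO replicate 4 the CA1 and thalamus majorities turned (5 of 11 and 6 of 13 higher), and with the offset that of the dentate gyrus did (6 of 13).

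Among glia, 12 of 15 microglia markers were higher, 5 with an unadjusted p under 0.05 (*C1qa*, *C1qb*, *C1qc*, *Tmem119* and *Csf1r*). These were 33.3% of the list, against 7.09% of all genes. The microglia sum was 573 ± 14.3 CPM in KO and 548 ± 15.8 CPM in WT mice (adjusted p = 0.142, exact permutation test). Astrocyte markers were higher for 9 of 15 genes and oligodendrocyte markers for 8 of 19, and neither sum differed past the threshold (adjusted p = 0.420 and 0.965). All 15 choroid plexus and ependyma markers were higher, 10 with an unadjusted p under 0.05 (66.7%, against 7.09% of all genes). Without KO replicate 4 it was 12 and 4, where 5.43% of all genes were higher with such a p. Of 19 endothelial and mural markers 15 were lower with 1 such gene (5.26%, against 6.16% of all genes). Without that library 18 were lower with 8, where 4.35% of all genes were lower with such a p. The endothelial sum then was 388 ± 45.99 CPM in KO mice against 440 ± 19.2 CPM in WT mice (adjusted p = 0.0455, exact permutation test), where it had been 0.661 with all libraries. Meninges markers were higher for 9 of 12 genes with all libraries and for 1 of 12 without KO replicate 4, and both tested blood markers were lower.

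**Figure D3:**
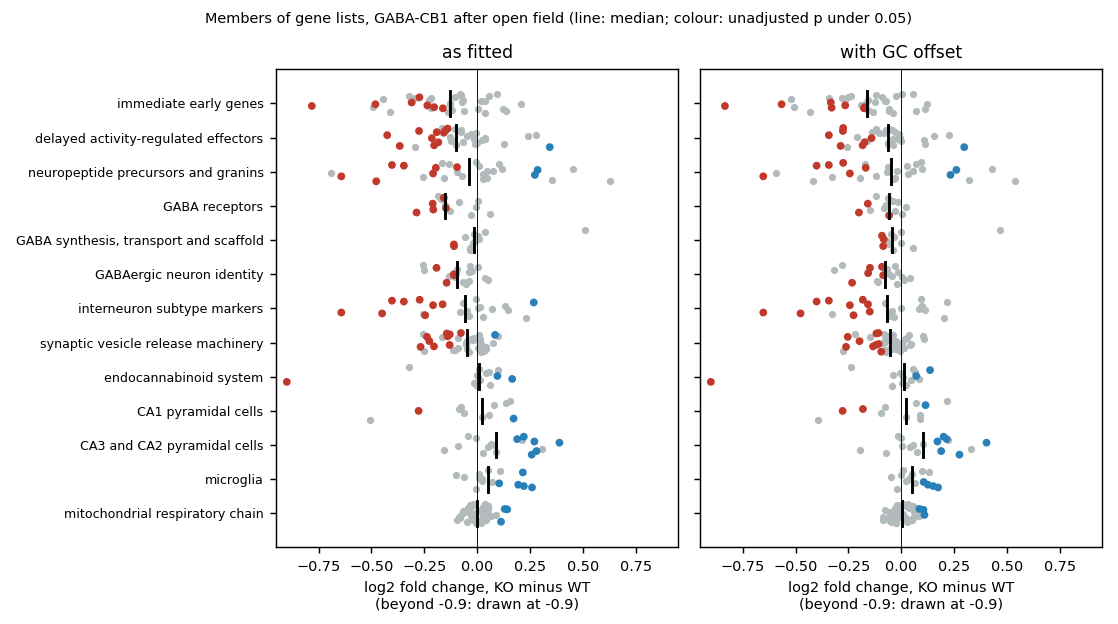
Log2 fold changes (KO minus WT, horizontal axis) of the single genes of 13 lists, each point a gene and each bar a median, as fitted (left) and with the GC offset (right). Values beyond −0.9 are drawn at −0.9, which holds for *Cnr1*: immediate early genes lie mostly left of 0 in both panels (25 and 29 of 34), and the GABA receptor median moves from −0.15 to −0.06.

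The same genotype comparison in home cage mice showed what was shared between the states, from other animals. There 37 of 15082 genes were called (0.245%). *Cnr1* was at 148 ± 6.60 CPM in KO and 350 ± 28.4 CPM in WT mice of the home cage, a log2 fold change of −1.23 (SE 0.05, adjusted p = 3.80e-09), and *Pdlim1* was called as well (log2 −0.67, SE 0.13, adjusted p = 0.0468). Of the 36 genes called there besides *Cnr1*, 31 had the same sign after the open field (86.1%, against 42% of 15011 genes) and 13 also had an unadjusted p under 0.05 in the same direction (36.1%, against 5.26%). *Crhbp* (log2 −0.44, adjusted p = 0.00940) and *Blnk* (log2 −0.78, adjusted p = 0.00604), an adaptor of B cell receptor signalling, were among them, and after the open field they were at −0.40 and −0.47 without being called by edgeR (DESeq2 called *Crhbp*).

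*Sst* had −0.28 in the home cage (adjusted p = 0.127), close to its open field value. *Pcsk1* had 0.11 and −0.43, *Ttc39b* −0.07 and −0.31, and *Npbwr1* 0.15 and −0.87 in the home cage and the open field. edgeR's test of the change between states over the 24 libraries called none of these and 0 of 15374 genes, where 2237 (14.6%) had an unadjusted p under 0.05 and DESeq2 called 62 (0.717%). *Cnr1* itself changed by −0.22 (adjusted p = 0.321) and *Pcsk1* by −0.53 (adjusted p = 0.198). The GC trend ran the opposite way in the home cage (rho −0.31), so that rho for the change between states was 0.591, and with the GC offset 0 genes were called and 1366 (8.89%) had an unadjusted p under 0.05.

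In the Glu-CB1 line after the open field 41 of 15078 genes were called (0.272%), and the fold changes had little trend with GC content (rho 0.04). *Cnr1* was at −0.72 there (SE 0.05, adjusted p = 7.59e-06), and the lines differed by −0.73 (SE 0.10, adjusted p = 8.75e-04), the GABA-CB1 line having the deeper fall. The test of the difference between lines over their 24 open field libraries called 87 of 15325 genes (0.568%), 37 on the higher and 50 on the lower side of the GABA-CB1 line. With the GC offset it was 80 (0.522%), 23 and 57. Among the genes named here 19 were called in this test. Of these, 10 are genes the study itself drew from these samples. The rest were named for a small p in the open field comparison of the GABA-CB1 line, which is part of this test. The count of the 19 is therefore no independent evidence.

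*Pdlim1* had the largest difference of the named genes. It was at 4.16 ± 0.721 CPM in Glu-CB1-KO and 2.72 ± 0.267 CPM in Glu-CB1-WT mice (log2 0.62, SE 0.12, adjusted p = 0.0544), and the lines differed by −1.69 (SE 0.16, adjusted p = 1.12e-06). *Crhbp* rose in the Glu-CB1 line (log2 0.61, SE 0.10, adjusted p = 0.0174) and differed by −1.01 between lines (SE 0.15, adjusted p = 9.47e-04). *Npy* rose there too (log2 0.55, SE 0.09, adjusted p = 0.0185), with a difference of −0.76 (SE 0.13, adjusted p = 0.00417). *Sst* was at 0.44 in the Glu-CB1 line (SE 0.09, adjusted p = 0.0574) and differed by −0.78 (SE 0.12, adjusted p = 0.00108).

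*Rab3b* and *Kcnn2* were at 0.28 and 0.18 in the Glu-CB1 line (adjusted p = 0.0698 and 0.109) and differed between lines by −0.55 and −0.35 (adjusted p = 0.00117 and 0.00152). *Blnk*, *Ldb2*, a cofactor of LIM domain transcription factors, *Cntnap4*, *Myadm* and *Ttc39b* completed the 12 named genes on the lower side, with differences of −0.77, −0.72, −0.43, −0.28 and −0.30. All 12 were also called with the GC offset. On the higher side, *Mdga1* (0.47), *Pwwp2b* (0.37), *Mycl* (0.32), *Sptb*, a spectrin of the membrane skeleton (0.28), *Brinp2* (0.28), *Lrrn2* and *Ehd1* (0.25 each) were called, and with the offset *Pwwp2b* and *Sptb* of these 7. For *Fosb*, *Bdnf* and *Pcsk1* the difference between lines was −0.84, −0.29 and −0.42 and did not pass the threshold (adjusted p = 0.247, 0.320 and 0.387).

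**Figure D4:**
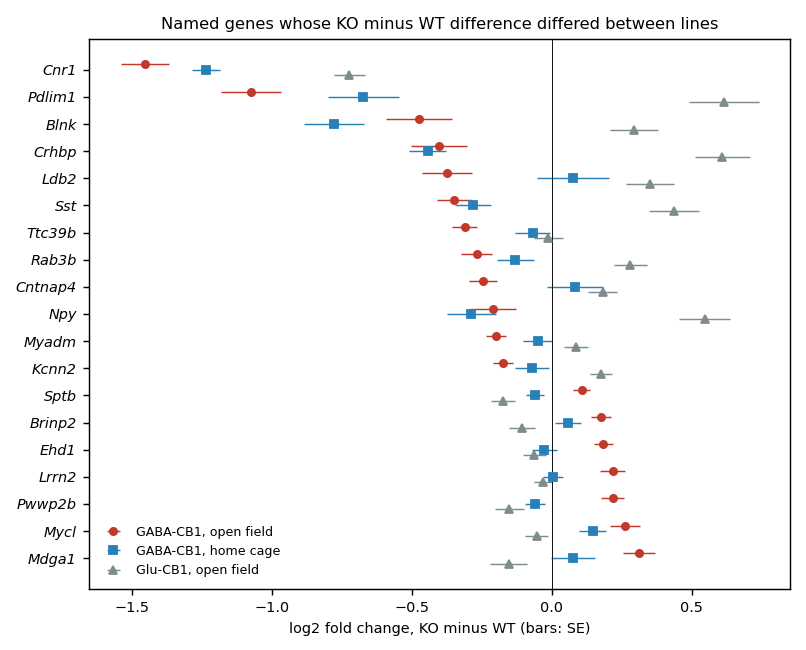
Log2 fold changes (KO minus WT, horizontal axis) with SE for 19 named genes in GABA-CB1 mice after the open field, GABA-CB1 mice in the home cage and Glu-CB1 mice after the open field. *Pdlim1*, *Crhbp*, *Npy* and *Sst* lie left of 0 in both GABA-CB1 comparisons and right of 0 in the Glu-CB1 comparison, and *Cnr1* lies left of 0 in all 3.

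The mean scores of the genotypes differed along the first principal component of the 500 most variable genes (31.4% of variance, p = 0.0177, exact permutation test, two-sided, 0.0354 adjusted over 2 components), but the groups overlapped. KO replicate 4 stood at 25.8, the other KO libraries at −3.26 to 2.66 and the WT libraries at −7.18 to 2.44. This component's leading genes were the choroid plexus genes *Ttr*, *Kcnj13* and *Kcne2*. Without KO replicate 4 the adjusted p in the same exact test was 0.394. The second component (19.2%) gave p = 0.419 in that exact test. Of the remaining genes that the study names, *Adgrl2* was at 77.5 ± 12.6 and 85.7 ± 9.63 CPM, and *Tdo2* at 4.36 ± 1.40 and 4.93 ± 1.15 CPM, with overlap in both (adjusted p = 0.523 and 0.736, edgeR).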

How the data were processed

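Hippocampal CA tissue of 12 male mice (5 GABA-CB1-KO and 7 GABA-CB1-WT after the open field), 1 library each, was analyzed, with 24 further libraries for the comparisons between states and lines. The authors amplified the RNA by NuGEN's SPIA method, trimmed the reads, aligned them to mm10 with STAR 2.6.0a and counted them by strand with featureCounts 1.6.2. The values they deposited are raw counts per gene, without normalization. Nothing upstream of the counts was repeated, and no column of sample values was left unused. No pair of libraries of a group was a duplicate (lowest chi-square per degree of freedom 3.11 over 31 pairs). The spread between mice includes counting error.

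Groups and replicate numbers were taken from the sample labels. KO minus WT was fitted with edgeR 4.0.16 (quasi-likelihood test, TMM, filterByExpr) in R 4.3.3 on the libraries of the comparison without covariates, and p-values were adjusted by Benjamini-Hochberg over all genes, with a threshold of 0.05. SE was derived from the F statistic. Differences between states and lines were fitted as means models over 24 libraries. Summed markers and principal components (log2 CPM, prior count 2) were compared by exact permutation. RefSeq promoters, on GRCm38.p6, were matched by symbol.

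The members and the 31 gene lists were chosen with earlier results of these data known. Named were *Cnr1*, the 18 genes that the study names, and the 12 higher and 12 lower genes of smallest p. Called genes of the lists or of the other comparisons were added, which made 36 in all. Values of each KO library are given for the first 15 in order of p, and also for *Bdnf* and *Crhbp*, which the study names. Other settings chosen at the start were DESeq2 1.42.0, its size factors, no filter, at least 10 counts in every library, 24 or 48 libraries in one fit, the range of animal numbers as covariate, the replicate block and leaving out each library. Added after the data were seen were limma-voom (limma 3.58.1), edgeR's likelihood ratio test, and an offset for GC content, which is a lowess trend (span 0.3) of each library on the GC content of the longest GENCODE vM21 transcript of each gene, fitted to genes above a mean log2 CPM of 1. A GC content was had for 96.4% of genes. Counts without KO replicate 4 were added too. The tests were tried on simulated data first. Single genes counted within some lists are not reported here by name.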

Additional observations from a re-analysis of the deposited data

Results flagged for a closer look

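Of 102 groups of libraries examined for a single sample far from the others (36 named genes and 15 marker sums in both genotypes), 7 held one, where chance gives about 1 in 20. *Ttc39b* was low in GABA-CB1-WT replicate 1 (78.6 CPM, the other WT libraries 85.3 to 89.8), *Pwwp2b* high in WT replicate 7 (36.3 CPM, the others 32.2 to 33.6) and *Pcp4* high in WT replicate 4 (51.9 CPM, the others 46.6 to 47.8). *Mycl* was high in KO replicate 1 (53.4 CPM, the others 44.8 to 47.02) and *Sptb* in KO replicate 5 (353 CPM, the others 343 to 346). The choroid plexus and ependyma sum of KO replicate 4 was 5472 CPM and its meninges and fibroblast sum 964 CPM, against 261 to 328 and 287 to 349 CPM in the other KO libraries.

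The genotype effect after the open field differed between the GABA-CB1 and Glu-CB1 lines for 19 named genes, by the test of the difference itself (edgeR, adjusted p under 0.05). All 19 were named from these same libraries, by the study or for a small p in the GABA-CB1 comparison. The difference on the log2 scale, GABA-CB1 minus Glu-CB1, was −0.73 for *Cnr1*, −1.69 for *Pdlim1*, −0.30 for *Ttc39b*, −0.28 for *Myadm*, −0.78 for *Sst*, −0.55 for *Rab3b* and −0.43 for *Cntnap4*. It was −0.35 for *Kcnn2*, −0.72 for *Ldb2*, −0.77 for *Blnk*, −1.01 for *Crhbp* and −0.76 for *Npy*. On the other side it was 0.47 for *Mdga1*, 0.25 for *Ehd1*, 0.37 for *Pwwp2b*, 0.25 for *Lrrn2*, 0.32 for *Mycl*, 0.28 for *Brinp2* and 0.28 for *Sptb*.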

How the results depend on the processing

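The 3 genes called in the GABA-CB1 line after the open field became 143 with DESeq2 (70 higher, 73 lower), 28 with the 24 libraries of the line in one fit, 106 with 48 libraries, 73 with edgeR's likelihood ratio test, 5 with the GC offset and 57 with the offset and DESeq2. Leaving out 1 library gave 2 to 11, with 7 without GABA-CB1-WT replicate 1 and 11 without KO replicate 1, and 3 to 16 under the GC offset (14 without WT replicate 1, 9 without WT replicate 5, 16 without KO replicate 1, and 5 without KO replicate 2 or 4). RLE size factors, no filter, at least 10 counts, the range of animal numbers and voom each gave 3. The change between states had 0 calls, 62 with DESeq2, 1 without WT replicate 7 and 0 to 1 over the libraries left out. The difference between lines had 87 calls, 194 with DESeq2, 53 with 48 libraries, and 62 to 98 with a library left out. The adjusted p of the first principal component moved from 0.0354 to 0.0808 with all genes and to between 0.0130 and 0.394 with a library left out. The GABAergic identity difference, by mean log2 CPM, was −0.10 (adjusted p = 0.121), and −63.9 CPM without KO replicate 4. The endothelial difference moved from −26.2 to −52.1 CPM without that library (adjusted p = 0.0455). Some marker sums that passed no threshold changed sign. By mean log2 CPM the difference was 0.11 for CA3 and CA2, −7.16e-05 for dentate, −0.0361 for thalamus and 0.0112 for astrocyte markers, and without KO replicate 4 it was 46.6 CPM for CA3 and CA2, −4.58 for dentate, −5.11 for thalamus and −17.6 for meninges markers. Of 126 values of this kind, 87 stayed the same. For a number of calls this means within a ratio of 1.5, and for a component the same side of the threshold. For a marker sum it means the same direction and side. Of the others, 19 were numbers of calls that moved further, 11 were weaker, 1 was stronger and 8 marker sums changed sign. Of 1290 values for named genes, 1140 kept their direction and side of the threshold and 17 changed sign. These 17 were all of genes that no alternative called. *Arc* (0.04 as fitted) changed sign in 12 of 36 alternatives: it was −0.0411 under the GC offset, −0.0416 with the offset and DESeq2, −0.19 to 0.18 with a library left out, and with both −0.0142, −0.0606, −0.109, −0.133 and −0.0649 without WT replicates 2, 3, 4, 5 and 7 and −0.0480 and −0.25 without KO replicates 2 and 4. *Grin2b* did so in 4 of 36, at 0.0808 without KO replicate 3, and with the offset 0.12 without that library and 0.00287 and 0.00597 without WT replicates 3 and 4. *Tdo2* did so in 1 of 35 (0.0800 with the offset and without KO replicate 1). The cause was not tested for any of these.

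Replicate numbers did not pair the libraries: deviations of same-numbered KO and WT libraries correlated at 0.10, 0.20, −0.28, −0.23 and −0.02, and 1 of 5 KO libraries correlated best with its own number. With the replicate number as a block, 1 gene was called (*Cnr1*), *Pdlim1* had an adjusted p of 0.126 and *Ttc39b* of 0.492, and the difference between lines had 54 calls.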

Other observations

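*Xkr4* was low in some libraries of every group. Over all 48 libraries it was at 3.21 to 5.51 CPM in 14 and between 8.75 and 39.3 CPM in the rest, and each of the 8 groups held at least 1 of the low libraries. Among the 12 libraries compared here it was at 4.15 CPM in KO replicate 3 and 4.62 CPM in WT replicate 1, and at 19.8 to 35.3 CPM in the others. Its log2 fold change was −0.09 (SE 0.41, adjusted p = 0.945, edgeR).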
